A study of Mus musculus with 4 samples.

Results

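The genes described here are elongation factors and other non-ribosomal genes described as having mRNAs with a terminal oligopyrimidine (TOP) motif, in mouse blastocysts. They were 10 genes chosen by name (Eef1a1, Eef1b2, Eef1d, Eef1g, Eef2, Tpt1, Pabpc1, Naca, Btf3 and Vim) among the 20714 gene symbols measured in both assays, and each was listed once in every library. The embryos were wild type, from crosses of 4-week-old C57BL/6J females with PWK/PhJ males per the protocols. The strain label, however, gives the cross as C57BL/6N x PWK. Per the paper, the females were injected with the gonadotropins PMSG and hCG to induce ovulation. The embryos themselves were not treated beyond collection and culture. They were taken as 8-cell embryos and grown to blastocysts in vitro in KSOM, an embryo culture medium. The zona pellucida was removed with acid before lysis. RNA-seq measured polyadenylated mRNA by Smart-seq2, and Ribo-seq measured the mRNA fragments protected by ribosomes (RPF) by Ribo-lite, a method for low input in which RNase I digests the unprotected mRNA, with 2 replicate libraries for each of the 2 assays and 4 libraries in all. Whole embryos were measured, so all cell types of the blastocyst were pooled, and nothing in the labels says that replicate libraries came from separate pools of embryos, so p-values measure only the spread between these libraries. Values are FPKM (fragments per kilobase of feature, scaled to the mapped fragments of the library), over transcripts in RNA-seq and over coding sequences in Ribo-seq, and levels are on the log2(FPKM + 1) scale wherever a log2 value is given.

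Each cycle of elongation needs a pair of GTPases. eEF1A, encoded by Eef1a1 in most embryonic cells, brings the aminoacyl-tRNA to the ribosome and leaves in its GDP form. The eEF1B complex, with the exchange subunits encoded by Eef1b2 and Eef1d and the scaffold subunit encoded by Eef1g, reloads it with GTP. eEF2 then moves the ribosome forward along the mRNA. Naca and Btf3 encode the subunits of the nascent polypeptide-associated complex, which meets the new chain as it leaves the ribosome. TOP mRNAs start with a cytosine followed by a run of pyrimidines, and their translation is switched as a group through mTORC1 and the RNA-binding protein LARP1 in growing and starved cells. Tpt1 (the translationally controlled tumour protein), Pabpc1 (the cytoplasmic poly(A)-binding protein) and Vim (the intermediate filament protein vimentin) are further genes described as having TOP mRNAs.

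The start regions were searched for this motif, since it is what defines the group. On the sense strand, 4 of the 10 genes had the letters TATA 25 to 35 bases ahead of a cytosine that opens a run of at least 7 pyrimidines (C or T), within 100 bases before and 100 bases after an annotated start, and these 4 are shown because their runs can be placed in this way. Among 21382 coding genes, 1.81% had such an arrangement. The pattern was chosen after the sequences were seen, so the share is a description and no test was made. The sequences are in the sense direction, 5′ to 3′, on NCBIM37 (the assembly of mm9), with the pyrimidine run in capitals.
Eef1a1, chr9:78329459-78329488, minus strand: cttggacgttCTTTTTCgcaacgggtttgc
Eef2, chr10:80639381-80639410, plus strand: cgtcagcggtCTCTTCCgccgcagccgccg
Tpt1, chr14:76245127-76245156, plus strand: cccgcgtcggCCTTTTCCgcccgctccccc
Pabpc1, chr15:36538712-36538741, minus strand: ggaggcggtgCTTCCCCTTCTCCCCggcgg
The run opened 30 bases after the TATA in Eef1a1 and in Eef2, 29 bases after it in Tpt1 and 27 bases after it in Pabpc1. The annotated start lay 53 bases ahead of the run in Eef1a1, 15 in Eef2 and 28 in Tpt1, and the run of Pabpc1 opened 3 bases before its annotated start. None of these libraries measured where transcription started, so the true first base of each mRNA was not measured. Without the TATA, a cytosine-led run of at least 7 pyrimidines lay within 50 bases before to 100 bases after an annotated start in 8 of the 10 genes (all but Eef1b2 and Naca), beside 62.8% of coding genes, so the run on its own was common. No match means only that these letters were not in the window searched.

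In the GENCODE vM1 annotation of NCBIM37, the eEF1 genes lie on separate chromosomes, with Eef1a1 at chr9:78326256-78336958 (minus strand), Eef1b2 at chr1:63223399-63227060 (plus), Eef1d at chr15:75725226-75739986 (minus) and Eef1g at chr19:9041531-9052969 (plus). Eef2 (chr10:80639376-80645252, plus) and Naca (chr10:127472402-127485693, plus) share a chromosome, as do Eef1d and Pabpc1 (chr15:36525416-36538728, minus). Btf3 is at chr13:99079851-99086961 (minus), Tpt1 at chr14:76244900-76248332 (plus) and Vim at chr2:13495554-13504453 (plus). Eef1d and Naca each have an annotated long isoform beside the common one, which the files do not separate, since they hold 1 value per gene.

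Eef1a1 was the highest of the group in both assays, and Vim the lowest. The mRNA of Eef1a1 stood at 2916 and 3059 FPKM in replicates 1 and 2, and its RPF at 5899.9 and 5187 FPKM, above 99.8% to 99.9% of gene symbols in the 4 libraries. In bulk embryos, fewer cells with a transcript and less of it per cell cannot be told apart, which holds for every level here. Ranked by mean mRNA level, the order was Eef1a1, Naca, Btf3, Tpt1, Eef1g, Eef1b2, Eef1d, Eef2, Pabpc1 and Vim, and no pair of neighbours overlapped between replicates. By mean RPF level it was Eef1a1, Naca, Tpt1, Btf3, Eef1b2, Eef1g, Eef1d, Eef2, Pabpc1 and Vim, where only Eef1d and Eef2 overlapped. The neighbours Tpt1 and Btf3, and likewise Eef1b2 and Eef1g, therefore changed places between the assays. Without RPF replicate 2, 8 of the 10 genes kept their place in the RPF order.

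The subunits of the eEF1B complex were not at one level. Eef1g mRNA (the scaffold) was at 555 and 553 FPKM, Eef1b2 mRNA at 332 and 369.7 FPKM and Eef1d mRNA at 156 and 149 FPKM. In RPF the order of the first 2 was turned, with Eef1b2 at 1502 and 1463 FPKM, Eef1g at 965 and 945 FPKM and Eef1d at 739 and 869 FPKM. Replicates of these genes lay close together, the widest gap being that of Eef1d in RPF. Eef2, the translocase, had 116 and 135 FPKM of mRNA and 772 and 619.7 FPKM of RPF, so its levels were below those of all eEF1 subunits in mRNA and overlapped with Eef1d in RPF.

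Both subunits of the nascent polypeptide-associated complex were among the 4 highest genes of the group in mRNA. Naca mRNA was at 1049 and 1086 FPKM and its RPF at 2651 and 2944 FPKM. Btf3 mRNA was at 971 and 947 FPKM and its RPF at 1608 and 1612 FPKM, the closest RPF replicates of the 10 genes. Tpt1, a small and abundant cytosolic protein, had mRNA at 680.05 and 802 FPKM and RPF at 2265 and 2019 FPKM. Naca was above Btf3 in every library, and Tpt1 stood below both in mRNA and between them in RPF.

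Pabpc1 and Vim stood apart from the rest of the group. Pabpc1 mRNA was at 49.6 and 49.3 FPKM, and its RPF at 112 and 61.5 FPKM, so the RPF replicates differed 1.82-fold. Vim was listed at 0 and 1.06 FPKM in mRNA and at 15.6 and 1.72 FPKM in RPF. Many low FPKM values lay on steps that whole fragments would give. Within 0.1 of a whole fragment lay 85.3% and 86.4% of them in the RPF libraries but only 66.5% and 64.2% in the mRNA libraries. Chance gives 20% for a fixed total, but the total was chosen by a search for a high share, so 20% is too low a baseline. The same search on uncorrected annotated lengths reached 38.3% and 36.1% in RPF and 48.2% and 48.1% in mRNA. The implied depth, less certain for mRNA, was 5454358 and 5154731 fragments in the mRNA libraries and 533079 and 484041 in the RPF libraries. On that scale the Vim values stood for about 10 footprints in RPF replicate 1 (95% exact Poisson interval 4.78 to 18.4) and 1 in replicate 2 (0.03 to 5.57), and for 0 and 10.9 mRNA fragments. For Pabpc1 they stood for 102 footprints (83.4 to 124) and 50.9 (37.9 to 66.95), and for Eef1a1 for 3738 (3619 to 3860) and 2984 (2878 to 3093). The intervals cover counting error only. Divided by the implied depth, they did not overlap between the RPF replicates for Eef1a1, Eef2 and Pabpc1, and they overlapped for the other 7 genes. The Vim values are too few to set its mRNA and RPF against each other.

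**Figure D1:**
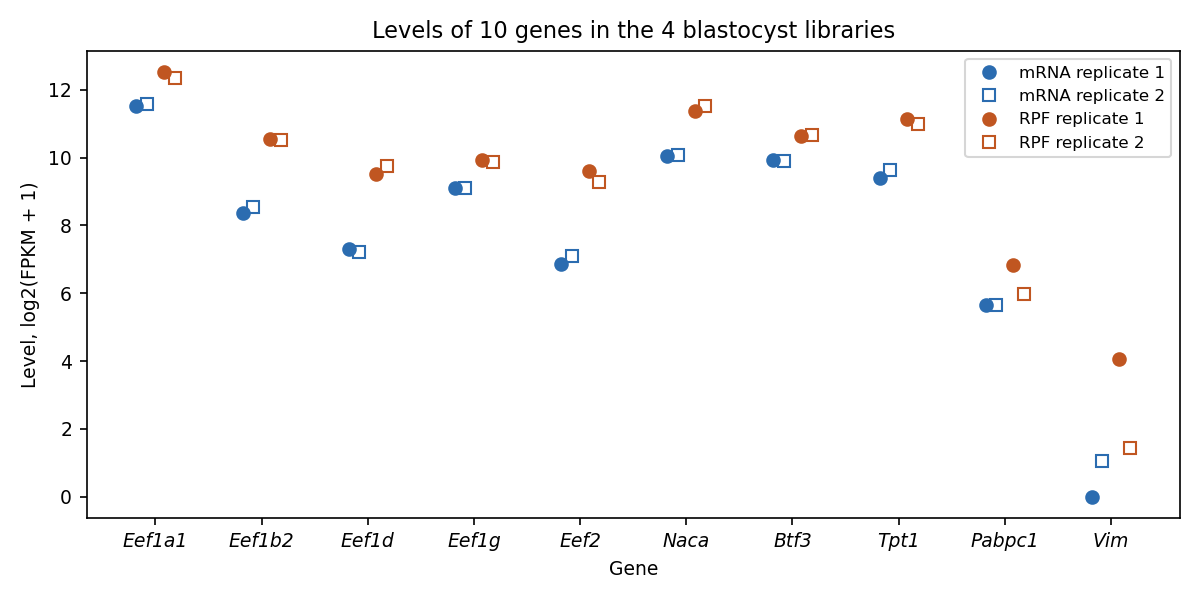
Level, as log2(FPKM + 1), of the 10 genes (x axis) in each mRNA library (blue) and RPF library (orange), with replicate 1 as filled circles and replicate 2 as open squares. Eef1a1 is highest in all 4 libraries, the replicates of the first 8 genes differ by at most 1.25-fold, and only Pabpc1 and Vim show a wide gap between the RPF replicates.

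Markers of cells in which vimentin is known to be abundant were read beside Vim. Of 8 fibroblast and stroma markers, 5 (Col1a1, Col1a2, Col3a1, Lum and Dcn) were at 0 in all 4 libraries. The sum of the list was 0.62 and 0.44 FPKM in mRNA and 160 and 142 FPKM in RPF. Nearly all of the RPF sum was listed under Acta2 (smooth muscle actin), at 155 and 127 FPKM. Its mRNA was only at 0.33 and 0.25 FPKM, and whether these footprints came from Acta2 itself was not tested. Thy1 was at 3.28 and 14.4 FPKM in RPF, the reverse of the order of the Vim values. Of 8 cumulus and granulosa markers, 7 were at 0 in all libraries and Ptx3 reached 1.09 FPKM in RPF replicate 2. The blood markers summed to 4.93 and 3.13 FPKM in mRNA and to 2.40 and 0 FPKM in RPF, with Ptprc, Hbb-b1 and Cd3e at 0 throughout. All 12 blastocyst markers were present in both RPF libraries, from 12.3 FPKM for Pdgfra to 3584 FPKM for Krt18, whereas Gata4, Sox17 and Sox2 were below 1 FPKM in both mRNA libraries. The part of other cells in the Vim values was not tested.

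Ratios between members of a complex were taken within each library, where no scaling between libraries enters. FPKM also divides by an effective length, which falls short of the annotated length by a share that differs between genes and assays. On assumed fragment lengths, the remaining share in RPF relative to mRNA was 0.741 for Tpt1, 0.786 for Eef1b2, 0.950 for Eef1g and 0.986 for Eef2. The ratios were not corrected for this. Eef1a1 mRNA exceeded Eef2 mRNA 25.2-fold and 22.7-fold, whereas in RPF it did so 7.64-fold and 8.37-fold, so the gap between the GTPases was 2.99 times narrower in RPF. Eef1a1 exceeded Eef1b2 8.79-fold and 8.27-fold in mRNA and 3.93-fold and 3.55-fold in RPF. Against Eef1d the excess was 18.7-fold and 20.5-fold in mRNA and 7.98-fold and 5.97-fold in RPF. Eef1a1 thus stood less far above its exchange subunits in footprints than in mRNA. Its ratio to the scaffold Eef1g was close in the assays, at 5.26 and 5.53 in mRNA and 6.11 and 5.49 in RPF, with ranges that overlapped.

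Within the eEF1B complex the ratio of Eef1b2 to Eef1g moved from 0.598 and 0.668 in mRNA to 1.56 and 1.55 in RPF, a 2.45-fold rise with the sides of 1 exchanged. Eef1g over Eef1d moved the other way, from 3.56 and 3.72 to 1.31 and 1.09. The exchange subunits kept closer to each other, with Eef1b2 over Eef1d at 2.13 and 2.48 in mRNA and 2.03 and 1.68 in RPF. Naca over Btf3 was 1.08 and 1.15 in mRNA and 1.65 and 1.83 in RPF. Tpt1 over Eef1b2 was 2.05 and 2.17 in mRNA and 1.51 and 1.38 in RPF, and Eef1a1 over Pabpc1 was 58.8 and 62.1 in mRNA and 52.6 and 84.4 in RPF. Of the 10 ratios, 8 did not overlap between the assays and 2 (Eef1a1 over Eef1g and Eef1a1 over Pabpc1) overlapped. Non-overlap was as common elsewhere, at 65.5% of all pairs of genes fitted and above 0 in every library and 80% of the pairs whose mRNA levels were at least that of Pabpc1, so the count is not a result about these genes. With 2 libraries against 2, the two-sided exact permutation test cannot go below p = 0.333, which is its value for each of those 8, so none of them can pass a threshold of 0.05.

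**Figure D2:**
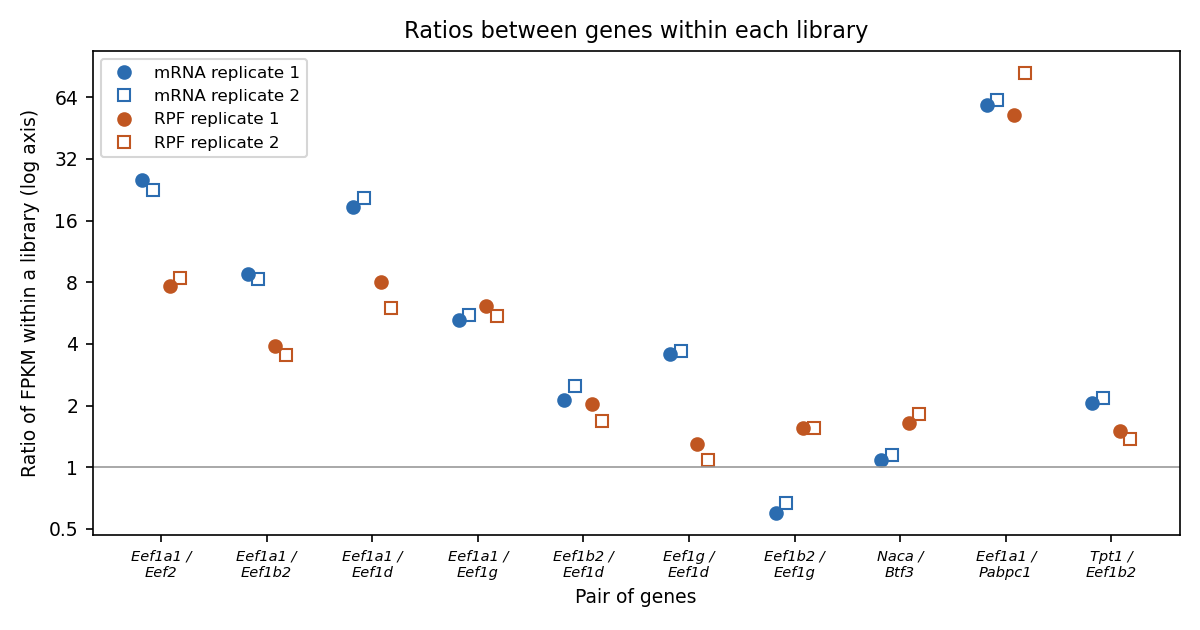
Ratio of the FPKM of the first gene to that of the second (y axis, log scale) for 10 pairs of genes, within each mRNA library (blue) and RPF library (orange), with replicate 1 filled and replicate 2 open. Eef1a1 over Eef2 falls from 25.2 and 22.7 in mRNA to 7.64 and 8.37 in RPF, and Eef1b2 over Eef1g crosses the line at 1.

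The only comparison between groups that the design allows is RPF against mRNA, as a reading of footprints per mRNA. Before scaling, the RPF level of all 9 genes other than Vim was above the mRNA level, by log2 differences of 0.31 (Pabpc1 in replicate 2) to 2.73 (Eef2 in replicate 1). The same was so of the median gene, since the medians of the RPF libraries lay 1.502 above those of the mRNA libraries on the log2 scale. Each library was therefore centred on its median over the 8327 genes with a mean of at least 1 FPKM in both assays, and the test was limma with Benjamini-Hochberg adjustment over these genes. A gene was called where the adjusted p was under 0.05 and the log2 difference was 1 or more in either direction. The median of the differences over all genes was -0.24 after centring. The tests, their intervals, the threshold of 1 and the counts above and below are set against 0, not against that median. Vim had a mean mRNA level under 1 FPKM and was not fitted.

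Of the 9 genes fitted, 0 were called by limma in either direction, beside 12% of all genes fitted (6.65% higher and 5.31% lower in RPF). At an unadjusted p under 0.05 there were 4 of 9 (Eef2, Eef1d, Eef1g and Btf3), beside 36.3% of all genes. The members' median difference was -0.11, from -0.76 to 0.96, with 4 above 0 and 5 below, whereas all 9 were above 0 with no centring. The members thus lay on both sides of the median gene and none reached the size needed for a call in this fit. With a minimum of 10 FPKM, the limma adjusted p was 0.037 for Eef2, 0.041 for Eef1d and 0.047 for Eef1a1. It was 0.031 for Eef1g and 0.028 for Btf3, and above 0.05 for Eef1b2, Naca, Tpt1 and Pabpc1. The differences under 0.05 were 0.87, 0.80, -0.70, -0.80 and -0.84 in that order, short of 1, so none was called. Without centring, 5 members were called higher, in an analysis in which 4113 genes were higher and 65 lower against 554 and 442 with it. Their order from highest to lowest cannot change with the centring, which shifts all genes of a library alike. Quantile normalization did change it, with Eef1g lowest at -1.09 and Tpt1 at -0.17 below Naca at -0.13.

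Eef2 had the highest value, with an RPF level 0.96 above its mRNA level (SE 0.26, 95% CI 0.24 to 1.67, n = 2 per assay, limma adjusted p = 0.0844), above 84.1% of genes. Eef1d followed at 0.89 (SE 0.26, 95% CI 0.17 to 1.61, limma adjusted p = 0.0973). The third was the other exchange subunit Eef1b2 at 0.58 (SE 0.24, 95% CI -0.09 to 1.24, limma adjusted p = 0.173), which came to 0.13 with quantile normalization. In this fit these 3 were the only members above the upper quartile of all genes, which was 0.55. With annotated length, Eef1b2 was at 0.37, Eef1d at 0.815 and Eef2 at 1.08 (limma adjusted p = 0.064 for Eef2, not called). Quantile normalization lowered Eef2 to 0.62 (limma adjusted p = 0.186) and Eef1d to 0.54 (limma adjusted p = 0.215). Eef2 was past the threshold at 1.07 without RPF replicate 2 (limma adjusted p = 0.0415), but not without RPF replicate 1, at 0.84 (limma adjusted p = 0.0765). Eef1d was past it at 1.04 without RPF replicate 1 (limma adjusted p = 0.0389), but not without RPF replicate 2, at 0.73 (limma adjusted p = 0.1095).

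Tpt1 and Naca lay near the middle, at 0.03 (SE 0.25, 95% CI -0.66 to 0.72, limma adjusted p = 0.939) and -0.11 (SE 0.25, 95% CI -0.80 to 0.57, limma adjusted p = 0.758). Naca moved to 0.0032 without RPF replicate 1 and Tpt1 fell below 0 under 6 of the alternatives, so neither has a stable sign. Eef1a1 was at -0.61 (SE 0.24, 95% CI -1.27 to 0.04, limma adjusted p = 0.155), with 36.7% of genes below it. The lowest 3 were Eef1g at -0.72 (SE 0.24, 95% CI -1.37 to -0.07, limma adjusted p = 0.116), Btf3 at -0.75 (SE 0.24, 95% CI -1.41 to -0.10, limma adjusted p = 0.108) and Pabpc1 at -0.76 (SE 0.36, 95% CI -1.75 to 0.22, limma adjusted p = 0.206). All of these were above the lower quartile of all genes, which was -1.003. Pabpc1 had the widest error and rested on single libraries, at -1.15 without RPF replicate 1 (limma adjusted p = 0.0286) and -0.38 without RPF replicate 2 (limma adjusted p = 0.361).

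**Figure D3:**
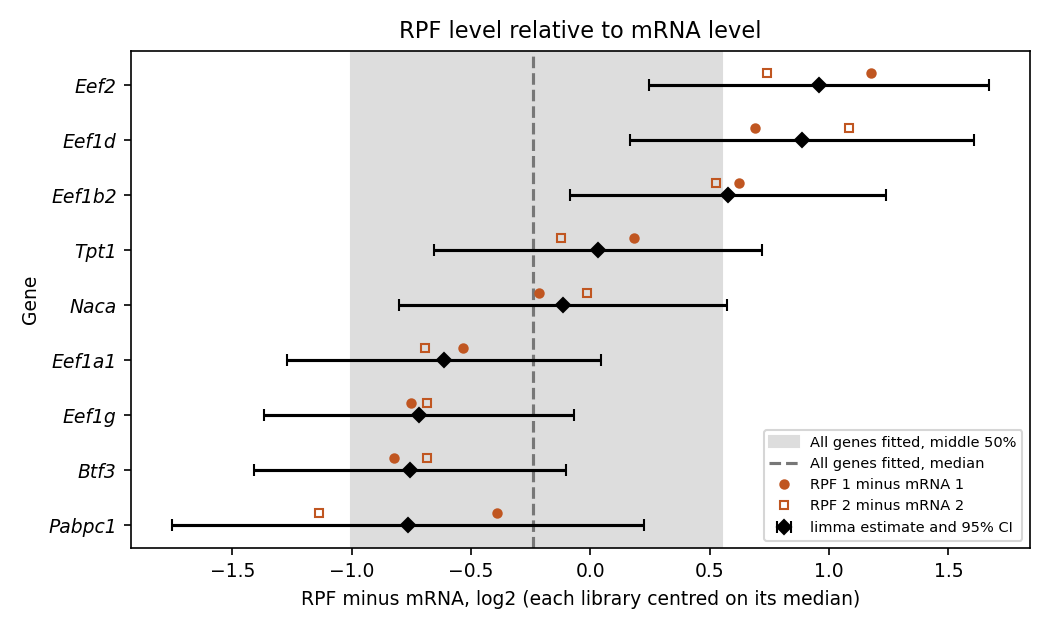
Log2 difference of RPF minus mRNA (x axis, each library centred on its median) for the 9 genes fitted (y axis), as the limma estimate with its 95% confidence interval (black) and for the same-numbered libraries (orange, filled for replicate 1 and open for replicate 2). The grey band holds the middle 50% of all genes fitted, from -1.003 to 0.55, and the dashed line is their median of -0.24; Eef2, Eef1d and Eef1b2 lie to the right of the band and no gene lies to its left.

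Many of these genes have near-copies elsewhere in the genome. The authors state that reads were mapped to the mm9 transcriptome, so how many of these genome places were open to a footprint was not measured. For each gene, every stretch of 28 bases of the coding sequence, about the length of a footprint, was counted on NCBIM37. At least 2 genome places held 98.8% of these windows in Tpt1 (median of 3 places), 93.4% in Eef1g (3), 89.6% in Eef1a1 (6), 87.2% in Naca (2) and 65.6% in Btf3 (2). The share was 45.8% in Pabpc1, 39.7% in Eef1d, 28.5% in Eef2, 24.8% in Eef1b2 and 1.02% in Vim, each with a median of 1 place. No window was at more than 20 places, the limit that the authors set for alignments, with 14 the most for Eef1a1. Coding transcripts of other genes held 1.81% of the windows of Pabpc1 and 1.02% of those of Vim, and none of the other 8 genes.

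The 5 genes with at least 50% of such windows had a median RPF-minus-mRNA difference of -0.61, and the 4 fitted genes with fewer had 0.73. Over the other genes fitted the medians lay the other way, at -0.0017 for the 647 with at least 50% and -0.25 for the 6743 with fewer, while the ribosomal protein genes had -0.87 (69 genes) and 0.12 (5 genes). Windows were counted for 88.9% of the genes fitted. The part of these near-copies in the levels and differences of the members was not tested. Reads of Tpt1, Eef1g, Eef1a1, Naca and Btf3 could be split among copies that the mapping covered, which leaves their levels uncertain to that extent.

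**Figure D4:**
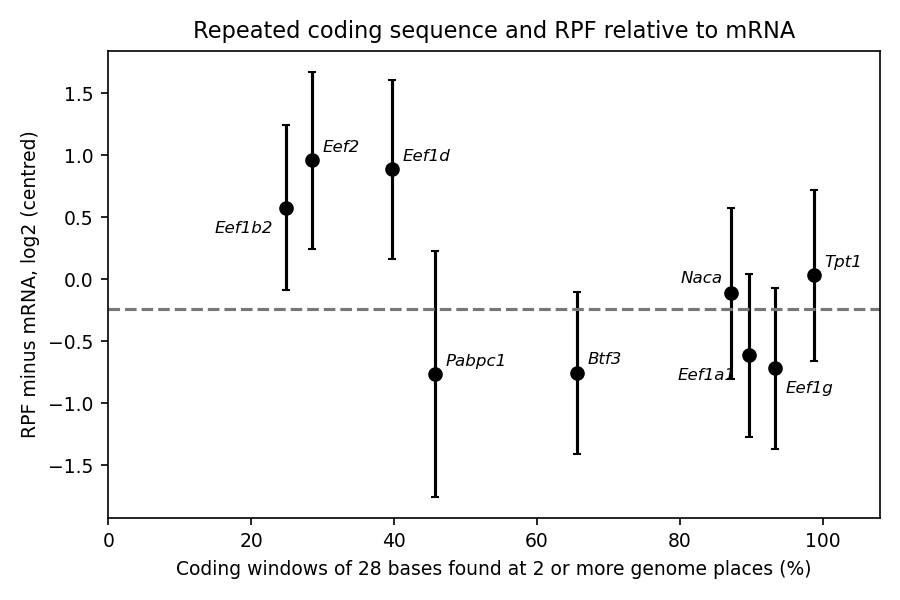
Share of 28-base coding windows found at 2 or more genome places (x axis, percent) against the log2 difference of RPF minus mRNA (y axis, centred, with the 95% confidence interval from limma) for the 9 genes fitted. The 3 genes above 0.5 on the y axis have shares of 24.8% to 39.7%, and the dashed line is the median of all genes fitted, -0.24.

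The other genes of the pathway were read from lists fitted in the same limma analysis. Over all genes fitted, 6.65% were called higher, 5.31% were called lower and 36.3% had an unadjusted p under 0.05. Of 17 other elongation genes, 14 were fitted, with a median difference of -0.46. Here 0 were called higher, 1 was called lower and 5 had an unadjusted p under 0.05. The call was Gfm2, a mitochondrial GTPase of ribosome recycling, at -1.37 (SE 0.25, limma adjusted p = 0.047). The highest value was that of Dph3, a gene of the diphthamide modification of eEF2, at 2.75, whose RPF was 255 FPKM in replicate 1 and 1142 in replicate 2 (limma adjusted p = 0.0994). The lowest was Dph2, of the same modification, at -1.75 (limma adjusted p = 0.180). The diphthamide genes were thus at both ends of the list without passing the test.

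Among termination and recycling genes, 5 of 6 were fitted, with a median of 0.74. Gspt1, which encodes the release factor eRF3a, was called higher at 1.55 (SE 0.24, limma adjusted p = 0.0375), from 7.36 and 6.78 FPKM of mRNA and 67.9 and 64.004 FPKM of RPF. Hbs1l, a relative of eRF3 that acts in ribosome rescue, had the lowest value of -0.997 (limma adjusted p = 0.0796). Of the 9 other non-ribosomal TOP genes, all of them fitted, 1 was called higher and 0 were called lower, with a median of -0.14. At an unadjusted p under 0.05 there were 5, beside 36.3% of all genes fitted. The call was the histone chaperone gene Nap1l1 at 1.95 (SE 0.30, limma adjusted p = 0.0373), with 58.5 and 65.3 FPKM of mRNA and 594 and 791 FPKM of RPF. The initiation factor gene Eif3e was lowest at -1.10 (limma adjusted p = 0.0643). The median of this list was near that of the members, and both were near that of all genes.

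The list of LARP1, its relatives and the mTORC1 pathway (17 genes, substrates and upstream signals included) had a median of -0.16. In it 1 gene was called higher and 3 lower, beside 6.65% and 5.31% of all genes fitted. Eif4e, the cap-binding protein, was higher at 2.43 (SE 0.26, limma adjusted p = 0.025), from 24.0 and 26.7 FPKM of mRNA and 369.8 and 430.3 FPKM of RPF. The lower calls were Tsc2, an inhibitor of mTORC1, at -1.85 (limma adjusted p = 0.0375), Rps6, a ribosomal substrate of the pathway that is also counted among the ribosomal protein genes, at -1.61 (limma adjusted p = 0.0371), and Rptor, the substrate-binding subunit of mTORC1, at -1.57 (limma adjusted p = 0.040). The lowest value, -2.04 for Eif4ebp2 (a repressor of Eif4e), came with an SE of 2.15, since its RPF was 70.3 FPKM in replicate 1 and 0 in replicate 2. Larp1 itself, named after its values were seen, was at 3.40 and 5.13 FPKM in mRNA and 21.1 and 34.8 FPKM in RPF, a difference of 0.93 that was not called (limma adjusted p = 0.176). The genes called lower thus included both an inhibitor and a subunit of mTORC1.

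Of 13 genes listed as paralogs of the members or as related to them by function, 4 were fitted. Their median was 1.06 and 1 was called higher, beside 6.65% of all genes fitted. The call was Pabpn1, the nuclear poly(A)-binding protein, which is related by function, at 2.11 (SE 0.26, limma adjusted p = 0.0293). The lowest was Des, the muscle intermediate filament, at 0.89 (limma adjusted p = 0.157). Named after their values were seen, Eef1a2 (the eEF1A paralog of muscle and neurons) was listed at 0 in both mRNA libraries and at 0.52 and 2.89 FPKM in RPF, and Pabpc4 was at 8.71 and 7.68 FPKM in mRNA and 46.0 and 60.1 FPKM in RPF. Eef1a1 was thus above Eef1a2 in every library, and Pabpc1 was above Pabpc4, although in RPF replicate 2 only by 61.5 against 60.1 FPKM.

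The ribosomal protein genes are the largest class of TOP mRNAs. Their differences spanned a wider range than those of the 9 members fitted, but a range widens with the number of genes. The 8327 genes fitted ran from -8.03 to 8.94. Over all genes fitted, 6.65% were called higher and 5.31% lower. Of 29 Rps genes, 2 were called higher and 9 lower, with a median of -0.46 and a range from -3.25 (Rps2) to 3.08 (Rps15a), and Rps12 at -3.07 and Rps27a at -2.74 were next in size. Of 46 Rpl genes, 6 were called higher and 14 lower, with a median of -0.81 and a range from -4.25 (Rpl29) to 4.40 (Rpl22), followed in size by Rpl7a at -3.85 and Rpl41 at 3.17. The range of the members, from -0.76 to 0.96, lay inside both. No test of the difference between these lists was made.

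**Figure D5:**
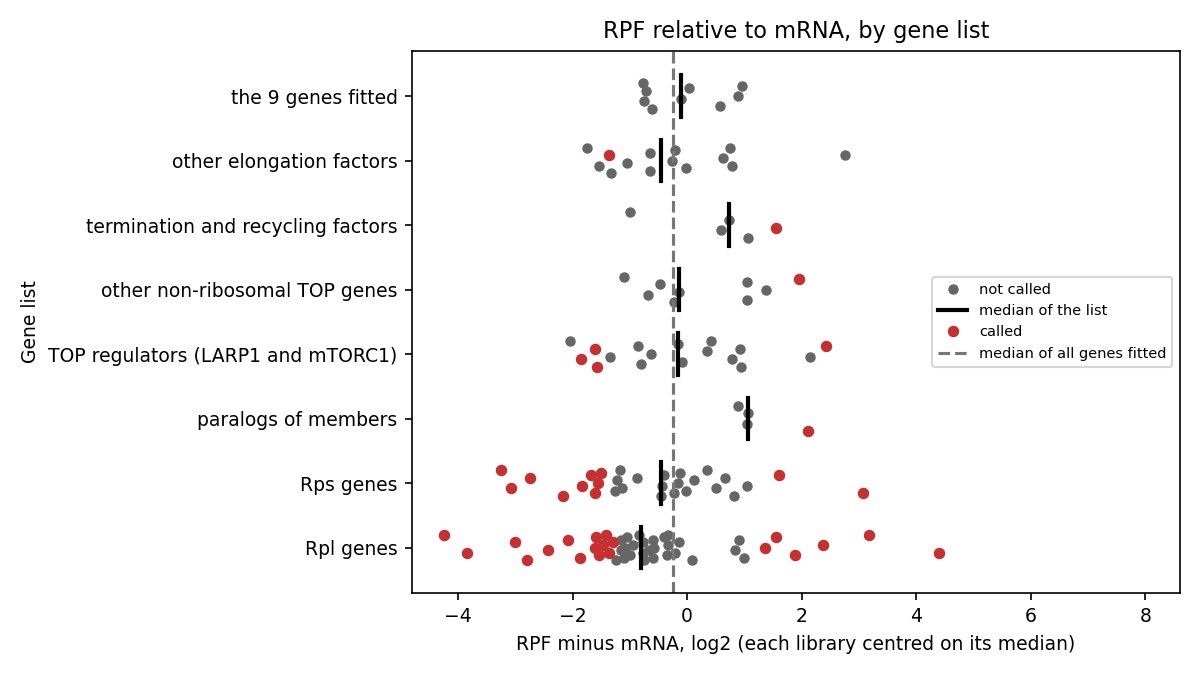
Log2 difference of RPF minus mRNA (x axis, each library centred on its median) for every gene fitted in each list (y axis), with called genes in red, other genes in grey, the list's median as a black bar and the median of all genes fitted, -0.24, as a dashed line. The 9 genes fitted of the group lie between -0.76 and 0.96 with 0 called, and the Rps and Rpl genes reach from -4.25 to 4.40.

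The genes nearest in level were taken by the root mean square difference in log2(FPKM + 1) over the 4 libraries. The nearest to Eef1a1 were Rps14 (0.159) and Rps18 (0.166), which encode ribosomal proteins of the small subunit. Rps14, for one, was at 2630 and 3032 FPKM in mRNA and 5552 and 6244 FPKM in RPF. For Pabpc1 they were Atp6v1c1 (0.110), which encodes a subunit of the vacuolar proton pump and lay at 50.2 and 54.95 FPKM in mRNA and 116 and 68.2 FPKM in RPF, then Praf2 (0.184) and Glrx5 (0.188). For Vim they were Ppm1l (0.257), Foxp4 (0.286) and Dhtkd1 (0.2997), which share its higher value in RPF replicate 1. These 3 had RPF values of 10.9 to 12.7 FPKM in replicate 1 and 1.61 to 2.34 FPKM in replicate 2, where 3 fragments over a coding sequence of 1 kb are worth 7.04 and 7.75 FPKM.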

How the data were processed

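RNA-seq and Ribo-seq of blastocysts (2 replicates each, grouped by the labels) were used. The authors deposited FPKM per gene and library. Per their notes and methods, reads were trimmed (Trim Galore 0.4.2, cutadapt 1.14) and rRNA reads were discarded in Ribo-seq (Bowtie2 2.2.2). Reads were mapped to the mm9 transcriptome with STAR 2.5.3a with at most 20 places per read. FPKM came from Cufflinks 2.2.1, over transcripts in RNA-seq and over coding sequences in Ribo-seq. Short coding sequences and reads shared among near-copies can therefore affect the values. For repeated symbols the highest value was kept.

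Here log2(FPKM + 1) was centred on each library's median and RPF was set against mRNA with limma 3.58.1 (R 4.3.3) for the 8327 genes with a mean of at least 1 FPKM in both assays, with Benjamini-Hochberg adjustment. Levels on this scale understate changes of low genes. Ratios within a library were compared with two-sided exact permutation tests (scipy 1.17.1). Implied fragments used the effective length of Cufflinks at a mean of 200 and SD of 80 bases. With it, 64.2% to 86.4% of low values lay within 0.1 of a whole fragment. Chance gives 20% for a fixed total, but the total was searched, and annotated lengths reached 36.1% to 48.2%. The share at effective length was too low to recover whole reads, so no count test was run. Gene models were GENCODE vM1 on NCBIM37 (Python 3.11.15). The fit and the depth estimate were tested on simulated data.

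The members and lists were chosen with earlier results of these data known. Named from each list were every gene if at most 4 were measured, otherwise up to 4 called genes with the largest differences and the highest and lowest gene, and the 3 genes nearest to Eef1a1, Pabpc1 and Vim, 1 of which is not reported here. Alternatives were the pseudocount, the filter, quantile normalization, no centring, the replicate number as a block, sums of repeated symbols, annotated length and each library left out. Replicates had a Spearman correlation of 0.940 in mRNA and 0.898 in RPF across 20714 genes, which are not independent.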

Additional observations from a re-analysis of the deposited data

How the results depend on the processing

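The count of members called higher (0 of 9) was 8 of 10 with no filter on low values, beside 5330 of all 20714 genes. It was 5 of 9 with no centring, beside 4113 of 8327 genes. The count of members called lower stayed at 0 under both settings. Over all genes, 554 called higher became 308 with a pseudocount of 0.1, 5330 with no filter, 4113 with no centring and 0 to 1268 without single libraries, and 442 called lower became 154, 158, 65 and 0 to 1987, and 670 with a minimum of 10 FPKM. Over the lists, 12 higher became 7, 73, 60 and 0 to 23, and 26 lower became 13, 5, 7 and 0 to 41, under the same settings in that order. The zeros came without either mRNA replicate (0 of 9 members then had an unadjusted limma p under 0.05), and without RPF replicate 1 or 2 the counts were 1268 or 1210 higher and 1987 or 1801 lower. With the replicate number as a block, limma called 0 genes in either direction (0 of 9 members at an unadjusted p under 0.05). The deviations of same-numbered libraries had a correlation of 0.0099. With 2 libraries per assay, whose own noise enters these deviations, this value cannot decide whether the numbers pair the samples. No centring leaves the shift of 1.502 between the assays in the differences, and with no filter the library medians were 0.38 and 0.35 in mRNA and 0 in both RPF libraries, so that centring on them added 0.365 to it. Under no filter and no centring, in that order, Eef1a1 was at 1.25 and 0.89, Eef1g at 1.15 and 0.78, Naca at 1.75 and 1.39, Btf3 at 1.11 and 0.75 and Pabpc1 at 1.10 and 0.74. Leaving out single libraries put Naca at -0.23 to 0.0032 and Tpt1 at -0.081 to 0.14. Tpt1 was at -0.068 with the pseudocount of 0.1, -0.053 with the minimum of 10 FPKM, -0.17 with quantile normalization, -0.26 with annotated length (7265 genes), -0.081 without mRNA replicate 1 and -0.0098 without RPF replicate 1. Where a library was left out, its assay's lone sample is assumed to vary like the other assay's. The order of the members by level was the same with a pseudocount of 0.1 and without either mRNA replicate. The RPF depth limits Vim and leaves Pabpc1 with about 51 to 102 footprints.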
